A study of Arabidopsis thaliana with 12 samples.

Results

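Seedlings of Arabidopsis thaliana that carry 35S:LOB-GR were compared with wild-type Columbia (Col) seedlings under mock treatment, that is, without dexamethasone. The members were the arrays whose titles give these 2 genotypes and the mock treatment, which left 3 35S:LOB-GR arrays and 3 Col arrays, 6 of the 12 arrays in the series. All 22746 probe sets other than the spike-in and control sets were described, and the genes were then grouped by function. The other 6 arrays, 3 of 35S:LOB-GR and 3 of Col, came from seedlings given 5 µM dexamethasone (DEX) and entered the same model.

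Both genotypes were in the Col-0 background and were 9 days old. The mock group of each was covered with MS medium and shaken for 4 h, and whole-seedling RNA was hybridised to Affymetrix ATH1 arrays. In the 35S:LOB-GR seedlings the 35S promoter drives a fusion of LOB to the hormone-binding part of the glucocorticoid receptor (GR) in most cells, and the Col seedlings carry no transgene. The labels do not say how many transgenic lines were used and name no sowing, harvest or array batch, so effects of one line, of insertion site and of such a batch cannot be told apart from the genotype. The level of LOB itself was not analysed here. Replicates are labelled as biological, and nothing more is said of their source.

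LOB (LATERAL ORGAN BOUNDARIES) encodes a plant-specific transcription factor made at the boundaries between the shoot meristem and the organs that form from it, and it is known for limiting growth there. Joined to GR, such a factor stays in the cytoplasm, and it enters the nucleus once dexamethasone or another glucocorticoid binds the receptor part. A fusion of this kind is therefore used with a mock group, and the genotype difference in that group is the one present without the hormone.

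Values are log2 expression levels, and every difference is 35S:LOB-GR minus Col, so a difference of 1 is a 2-fold change. A probe set or gene is said to have risen, fallen or changed when the Benjamini-Hochberg adjusted p of the limma fit was under 0.05, adjusted over all 22746 probe sets. At this threshold 2470 probe sets differed between 35S:LOB-GR and Col under mock treatment, which is 10.9% of those tested. Of these, 1310 were higher (5.76%) and 1160 were lower (5.1%) in 35S:LOB-GR. The median difference over all probe sets was 0.0042. Most changes were moderate, with a median absolute difference of 0.52 among the changed probe sets against 0.114 over all probe sets, and the smallest one that passed was 0.253. At least 2-fold changes were found for 99 probe sets that rose and 174 that fell, and at least 4-fold changes for 11 that rose and 26 that fell. The 3 arrays of one genotype lay entirely apart from the 3 of the other for 2435 of the changed probe sets, and for 6337 (27.9%) of those tested. The 15 highest and 15 lowest genes named below were picked only among changed probe sets without overlap. Their lack of overlap therefore follows from the choice. For other changed genes it is given below only as a description, since nearly all changed probe sets showed it.

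**Figure D1:**
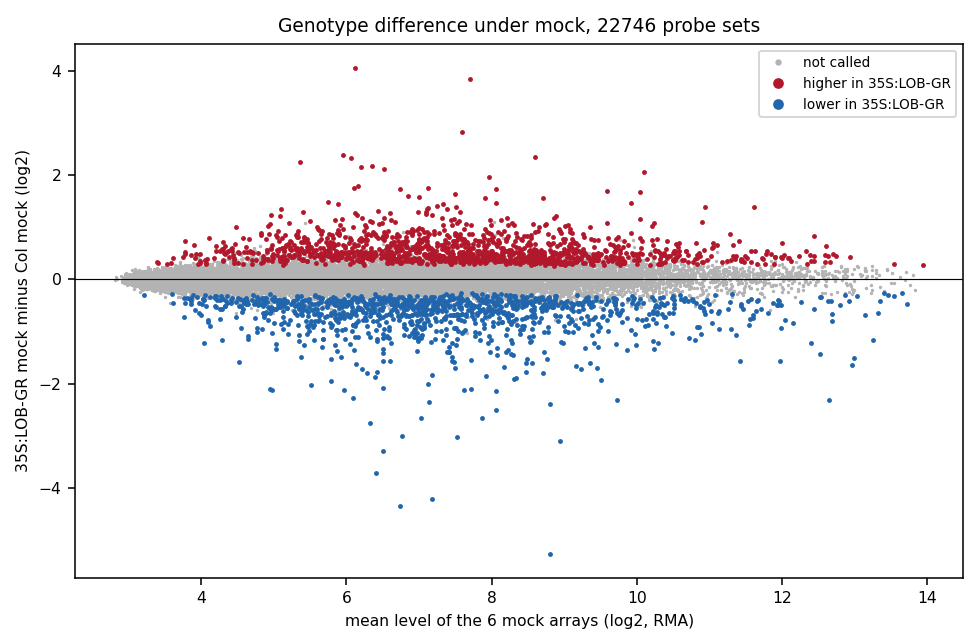
Genotype difference under mock treatment (35S:LOB-GR minus Col, log2) against the mean log2 level over the 6 mock arrays, 1 point per probe set, 22746 in all. The 1310 probe sets that rose and the 1160 that fell are coloured, and 52 of the changed probe sets lie in the dimmest 25% of levels.

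Only part of the array could be read as named genes. The platform annotation gave 1 gene for 13513 probe sets, several genes for 503 and none for 8730. Of the probe sets with 1 gene, 13436 were matched to RefSeq, and together the 13513 stood for 13356 genes. Of these genes, 1557 also had a gene symbol, and the rest were known by locus alone. Over the 13356 genes, each read from its brightest probe set, 598 rose (4.48%) and 587 fell (4.4%), 8.87% in all. Over the 1557 genes with a symbol, 97 rose (6.23%) and 113 fell (7.26%), 13.5% in all, with a median difference of -0.0091. The groups below were made from genes with a symbol, plus a few loci with a RefSeq synonym, so their counts are to be read against 13.5%. Many familiar genes are absent from the named set, and a group holds only the members that could be named. Since whole seedlings were measured, fewer cells of a type and less RNA per cell cannot be told apart in any of these values.

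Among clock and light-signalling genes the change was carried by a few genes. GI (GIGANTEA), a clock-associated protein that links day length to flowering, had levels of 5.85, 6.94 and 6.84 in 35S:LOB-GR seedlings, against 9.17, 9.29 and 9.11 in Col seedlings. All 3 35S:LOB-GR arrays were more than 2 log2 units below every Col array, and they were also more spread out. GI averaged 6.54 ± 0.60 in 35S:LOB-GR and 9.19 ± 0.09 in Col (SD, n = 3 each), a difference of -2.65 ± 0.21 (SE; limma adjusted p = 1.02e-06), or 6.27-fold lower in 35S:LOB-GR. COR27, a night-phased regulator of the clock that is also cold-responsive, had 7.05, 7.02 and 7.09 in 35S:LOB-GR against 4.93, 5.48 and 5.37 in Col, a difference of 1.79 ± 0.13 (adjusted p = 3.95e-07). The 2 clock-linked genes thus changed in opposite directions. HYH, a bZIP protein related to the light-signalling factor HY5, had 6.20, 5.42 and 5.45 in 35S:LOB-GR against 4.41, 4.68 and 4.32 in Col, a difference of 1.22 ± 0.21 (adjusted p = 0.00137). Over the 14 measured genes of this group 2 rose and 1 fell, and the median difference was 0.04. A second gene passed as lower when Col replicate 2 was left out. Among 15 flowering-time genes 1 rose and 2 fell. The gene that rose was SMZ, an AP2-type repressor of flowering, with 6.91, 6.72 and 7.0 in 35S:LOB-GR against 5.58, 5.74 and 5.98 in Col (difference 1.11 ± 0.16, adjusted p = 0.000251). Neither of the 2 lower genes passed without 35S:LOB-GR replicate 2 or 3 or Col replicate 2, and 1 of them passed without each of the others. HHP2, one of them, ran between -0.46 and -0.32 over the arrays left out. Without 35S:LOB-GR replicate 1 a second gene passed as higher.

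**Figure D2:**
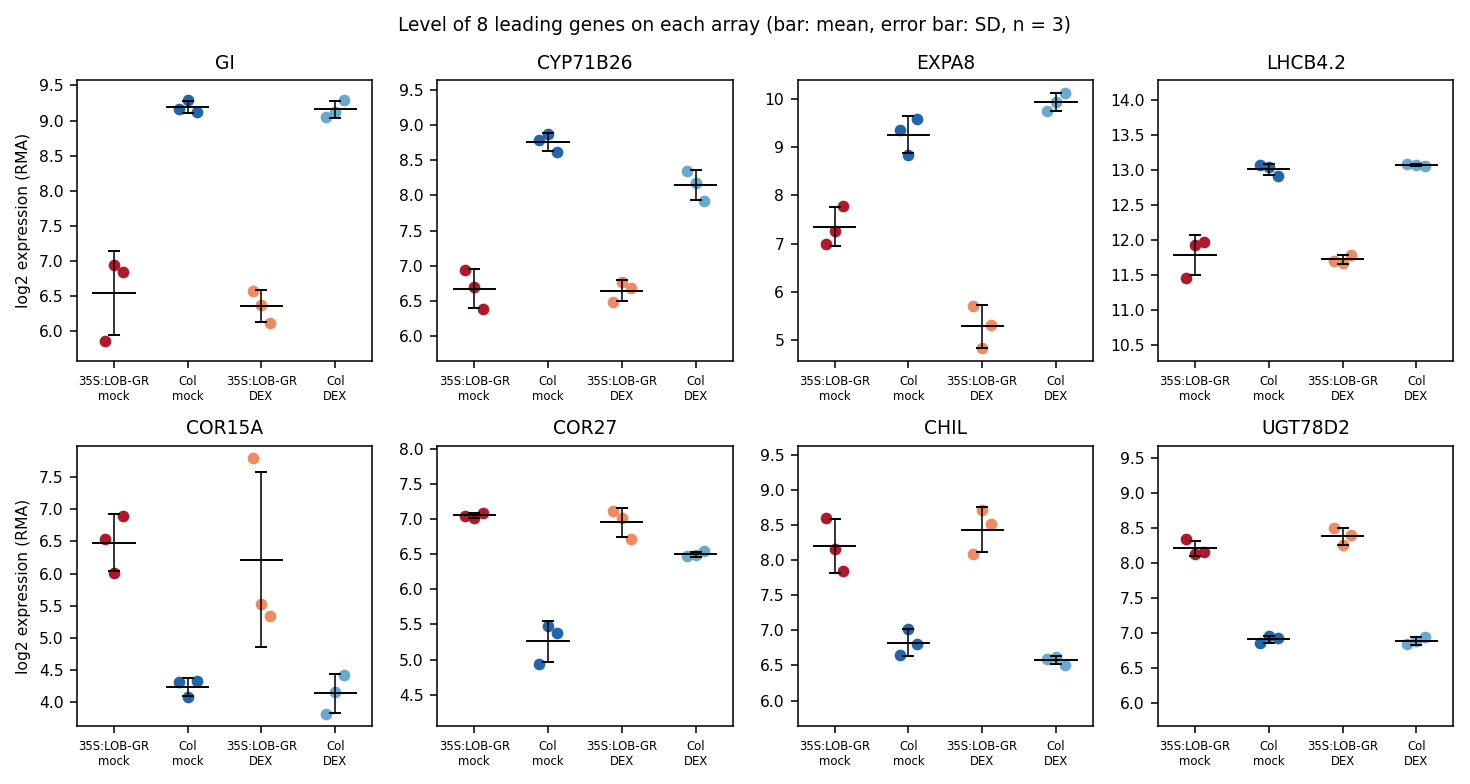
Log2 level on each array of GI, CYP71B26, EXPA8, LHCB4.2, COR15A, COR27, CHIL and UGT78D2, with columns for 35S:LOB-GR mock, Col mock, 35S:LOB-GR DEX and Col DEX (n = 3 each). Points are arrays and bars are group means. Under mock treatment the 2 genotypes do not overlap in any of the 8 genes, and the first 4 are lower and the last 4 higher in 35S:LOB-GR. For genes among the 15 highest or 15 lowest, lack of overlap was a condition of being named.

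Cold and dehydration genes did not move as a group. COR15A, a cold-induced chloroplast protein that protects membranes during freezing, had 6.53, 6.01 and 6.90 in 35S:LOB-GR seedlings against 4.3, 4.06 and 4.32 in Col seedlings. Every 35S:LOB-GR array was above every Col array, with a difference of 2.25 ± 0.45 (limma adjusted p = 0.00398), or 4.75-fold. The Col level was low on this scale, and the size of such a difference is less certain. Its neighbour in function COR15B differed by 0.94 ± 0.30 and missed the threshold (adjusted p = 0.055), and the dehydrin COR47 differed by -0.52 (adjusted p = 0.056). TIL, a lipocalin tied to heat and freezing tolerance, fell, with 8.81, 8.65 and 9.08 in 35S:LOB-GR against 9.70, 9.72 and 9.65 in Col (difference -0.84 ± 0.10, adjusted p = 7.11e-05). The dehydrin LTI30 was the other gene that fell (-0.70), but it did not pass without 35S:LOB-GR replicate 2 or without Col replicate 1 or 2, where the fits gave between -0.91 and -0.43 over the 6 arrays left out in turn. In all, 2 of 20 measured genes rose and 2 fell, and the median difference was -0.18.

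The protein-folding genes that could be named were lower where they changed in the fit of all arrays, and loci with no name were not sorted into these groups. Of 15 genes for cytosolic chaperones and the heat response none rose and 3 fell, and of 14 genes for folding and quality control in the endoplasmic reticulum (ER) none rose and 4 fell (28.6%). The medians were -0.23 and -0.22, against -0.0091 over all genes with a symbol. Fes1B, a helper of cytosolic HSP70, had 7.13, 7.2 and 7.33 in 35S:LOB-GR against 8.10, 7.94 and 8.04 in Col (difference -0.80 ± 0.09, adjusted p = 3.41e-05). AT5G48570, the FKBP-type peptidyl-prolyl isomerase ROF2, had 5.8, 5.76 and 5.93 in 35S:LOB-GR against 6.77, 6.94 and 7.33 in Col (difference -1.18 ± 0.21, adjusted p = 0.00183). Both sets of arrays stood clear of each other. In the ER, the J-protein ATERDJ3B, a co-chaperone of BiP, had 9.04, 8.98 and 8.80 in 35S:LOB-GR against 9.75, 9.72 and 9.70 in Col (difference -0.79 ± 0.10, adjusted p = 0.000107). CRT1b, a calreticulin that helps glycoproteins fold, had 10.05, 10.0003 and 9.999 in 35S:LOB-GR against 10.89, 10.58 and 10.77 in Col (difference -0.73 ± 0.09, adjusted p = 9.34e-05). ATERDJ2B and DER2.1, a derlin of ER-associated degradation, were each lower by about the same amount (-0.60), although DER2.1 missed the threshold without Col replicate 2 (adjusted p = 0.0535). With each mock array left out in turn, 3 or 4 of the ER genes passed as lower, and 2 of the cytosolic ones. Without 35S:LOB-GR replicate 1, a cytosolic gene passed as higher.

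Nuclear genes for photosynthesis held the largest share of changed members among the groups with at least 10 measured genes. Of 34 measured genes, 10 fell and 5 rose, 44.1% in all against 13.5% of genes with a symbol, and the differences ran from -1.22 to 0.63 with a median of -0.12. The 10 lower genes became between 6 and 8 when single arrays were left out, with 6 without 35S:LOB-GR replicate 2 and without Col replicate 1, 2 or 3, and the 5 higher genes became 3 without Col replicate 1. LHCB4.2, which encodes a minor antenna protein of photosystem II (CP29), had 11.47, 11.93 and 11.98 in 35S:LOB-GR seedlings against 13.06, 13.05 and 12.92 in Col seedlings. This bright gene differed by -1.22 ± 0.11 (adjusted p = 6.13e-06) with no overlap. LHCB4.3, its relative, went the other way, with 7.61, 7.15 and 7.16 in 35S:LOB-GR against 6.93, 6.73 and 6.45 in Col (difference 0.60 ± 0.14, adjusted p = 0.0123). It did not pass without 35S:LOB-GR replicate 1 or Col replicate 3, and the differences ran between 0.45 and 0.72 over the arrays left out. PSAN, a lumenal subunit of photosystem I, had 12.31, 12.03 and 12.12 in 35S:LOB-GR against 12.66, 12.78 and 12.71 in Col (difference -0.56 ± 0.10, adjusted p = 0.00131). NdhN, a subunit of the chloroplast NADH dehydrogenase-like complex, had 9.25, 9.03 and 9.39 in 35S:LOB-GR against 8.56, 8.71 and 8.50 in Col (difference 0.63 ± 0.10, adjusted p = 0.00082). Genes for other photosystem II proteins were lower by less, with differences of -0.44 for PSBW, -0.41 for PSBY and -0.42 for the assembly factor PSB27 (adjusted p = 0.00262, 0.0031 and 0.00526). LHCB4.1, the third CP29 gene, averaged 13.30 in 35S:LOB-GR and 13.60 in Col, a difference of -0.30 (adjusted p = 0.0224). These 4 were named after their values were seen. The curvature proteins of thylakoid membranes were split, since AT1G52220 (CURT1C) differed by -0.52 (adjusted p = 0.0016) and AT4G38100 (CURT1D) by 0.43 (adjusted p = 0.0102). RCA, the activase of Rubisco and one of the brightest leaf genes, averaged 13.71 in 35S:LOB-GR and 13.82 in Col, a difference of -0.11 that did not pass (adjusted p = 0.481).

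Of 18 measured genes for chlorophyll and related pigments (tetrapyrrole and pigment synthesis) 4 fell and 1 rose, and 4 fell whichever mock array was left out. PORB, a light-dependent protochlorophyllide reductase, had 11.14, 11.15 and 11.40 in 35S:LOB-GR against 11.995, 11.91 and 12.02 in Col, a difference of -0.74 ± 0.11 (adjusted p = 0.000257). HEME1 and HEME2, uroporphyrinogen decarboxylases, differed by -0.52 and -0.40 (adjusted p = 0.00175 and 0.00632), and AT1G74470, the geranylgeranyl reductase that supplies the phytol tail of chlorophyll, by -0.41 (adjusted p = 0.00498). The 1 gene that rose, GSA1 (0.28), which acts at the start of the pathway, missed the threshold in each of the 6 fits with an array left out, at differences between 0.24 and 0.32. TRXF2, a chloroplast thioredoxin that activates enzymes of carbon fixation in the light, had 8.76, 8.56 and 8.85 in 35S:LOB-GR against 9.67, 9.67 and 9.65 in Col. The difference was -0.94 ± 0.10 (adjusted p = 1.32e-05), and TRXF2 was 1 of 2 genes that fell among 19 thioredoxin and redox genes, of which none rose. Without 35S:LOB-GR replicate 2 it was the only one, since MSRB6 then missed the threshold.

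Of 69 chloroplast-encoded genes 2 rose and 3 fell, 7.25% in all, with a median of -0.08. The share was 8.87% over all genes and 13.5% over genes with a symbol. The ribosomal protein gene rpl14 had 6.58, 6.52 and 6.84 in 35S:LOB-GR against 7.71, 7.74 and 6.99 in Col (difference -0.83 ± 0.18, adjusted p = 0.00725), and Col replicate 3 lay close to the 35S:LOB-GR arrays. The photosystem II core gene psbA had 10.56, 10.85 and 11.06 in 35S:LOB-GR against 11.58, 11.47 and 11.24 in Col (difference -0.60 ± 0.13, adjusted p = 0.00538). In both genes Col replicate 3 was the lowest Col array. Without it, 10 chloroplast-encoded genes passed as lower in place of 3, and 6 of the 19 genes for the plastid ribosome and RNA polymerase passed in place of 1. Without Col replicate 2 none passed as higher. The photosystem I core genes psaA and psaC had differences of 0.75 and 0.62 that did not pass (adjusted p = 0.088 and 0.054), and none of the 7 plastid-encoded photosystem I genes passed in either direction, although 2 passed as higher and 1 as lower without Col replicate 3. Of the 16 mitochondrion-encoded genes none rose and 1 fell, ccb382 of cytochrome c maturation. It missed the threshold without 35S:LOB-GR replicate 1 or 3 or Col replicate 1 or 2, at between -0.73 and -0.46 over the arrays left out, and 2 genes passed without Col replicate 3.

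The genes for flavonoids rose where they changed. Of 24 flavonoid and phenylpropanoid genes 4 rose and none fell (16.7%, against 13.5% of genes with a symbol), with a median of 0.10, and 3 to 5 rose with single arrays left out. CHIL, a chalcone isomerase-like protein that raises flux into the pathway, had 8.61, 8.15 and 7.85 in 35S:LOB-GR seedlings against 6.64, 7.02 and 6.80 in Col seedlings. Its difference was 1.38 ± 0.18 (adjusted p = 9.94e-05). UGT78D2, the flavonoid 3-O-glucosyltransferase, had 8.34, 8.13 and 8.15 in 35S:LOB-GR against 6.86, 6.96 and 6.93 in Col (difference 1.29 ± 0.09, adjusted p = 2.65e-07). UGT78D1, which adds rhamnose at the same position of flavonols, had 8.53, 8.72 and 8.30 in 35S:LOB-GR against 7.43, 7.50 and 7.48 in Col (difference 1.04 ± 0.11, adjusted p = 1.2e-05). None of these 3 genes overlapped between the genotypes, as for 2435 of the 2470 changed probe sets. ALDH2C4, which makes ferulic and sinapic acid, differed by 0.50 and missed the threshold without 35S:LOB-GR replicate 2 (adjusted p = 0.0586). DFR, the reductase that leads to anthocyanins, differed by 0.045 (adjusted p = 0.903).

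Among the 52 measured UDP-glycosyltransferases, enzymes that attach sugars to small molecules, 7 rose and none fell. The share changed, 13.5%, was the same as over all genes with a symbol, and 5 to 8 rose when single arrays were left out. UGT71B1 had 7.83, 7.70 and 7.88 in 35S:LOB-GR against 6.64, 6.43 and 6.62 in Col, a difference of 1.24 ± 0.09 (adjusted p = 3.39e-07). UGT87A2 had 7.56, 7.83 and 7.77 in 35S:LOB-GR against 7.07, 6.71 and 6.71 in Col, a difference of 0.89 ± 0.11 (adjusted p = 5.2e-05). UGT78D1 and UGT78D2 are counted in this group too. CYP71B26, a cytochrome P450, moved far in the other direction, with 6.93, 6.69 and 6.39 in 35S:LOB-GR against 8.79, 8.88 and 8.63 in Col. At -2.09 ± 0.14 (adjusted p = 1.7e-07) it was 4.27-fold lower. The other 18 measured genes of its CYP71B family included 2 that rose, CYP71B5 and CYP71B6, and neither passed without 35S:LOB-GR replicate 2 or without Col replicate 3 (differences between 0.27 and 0.38 over all arrays left out). CYP71B5 also missed the threshold without 35S:LOB-GR replicate 1 or Col replicate 2. Without Col replicate 3, 2 genes of the family passed as lower.

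Starch and sucrose genes changed often and in both directions. Of 15 measured genes 4 rose and 2 fell, 40% in all, with a median of 0.09. ATSPS4F, a sucrose phosphate synthase, had 6.30, 5.69 and 6.12 in 35S:LOB-GR seedlings against 5.47, 5.37 and 4.96 in Col seedlings (difference 0.77 ± 0.16, adjusted p = 0.00532). A pair of enzymes of starch breakdown were also higher, AT5G26570 (PWD, the phosphoglucan water dikinase) by 0.51 (adjusted p = 0.00373) and DPE1, a plastid disproportionating enzyme, by 0.48 (adjusted p = 0.00277). AKINBETA1, a regulatory subunit of the energy-sensing kinase SnRK1, had 7.23, 7.2 and 7.91 in 35S:LOB-GR against 8.08, 8.18 and 8.14 in Col (difference -0.68 ± 0.15, adjusted p = 0.0069). The other gene that fell, SWEETIE, did not pass without replicate 1 or 2 of either genotype, at differences between -0.57 and -0.35 over all arrays left out. The subunit APL3 of ADP-glucose pyrophosphorylase passed as higher (0.57) but, of the 6 fits with a mock array left out, only the one without 35S:LOB-GR replicate 3 kept the call, at differences between 0.39 and 0.75.

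Sugar carriers and other transporters gave a similar mixture. Of 20 sugar transporters 3 rose and 2 fell. TMT1, which loads sugars into the vacuole, had 9.39, 9.30 and 9.53 in 35S:LOB-GR against 8.58, 8.58 and 8.72 in Col (difference 0.78 ± 0.12, adjusted p = 0.000472). SWEET1 and SWEET2, sugar facilitators of the plasma membrane and the vacuole, differed by 0.67 and 0.61 (adjusted p = 0.00639 and 0.00176). SFP2 was lower by a like amount, with 6.63, 6.72 and 6.90 in 35S:LOB-GR against 7.36, 7.28 and 7.61 in Col (difference -0.67, adjusted p = 0.00139), and SWEET16, the other lower gene (-0.68), did not pass without 35S:LOB-GR replicate 2 or Col replicate 3, at between -0.80 and -0.57 over the arrays left out. Of 10 nitrate and peptide transporters 2 rose and none fell, and 1 passed as lower without 35S:LOB-GR replicate 3. AT1G68570 (NPF3.1) had 8.07, 8.37 and 7.89 in 35S:LOB-GR against 7.23, 6.70 and 7.07 in Col (difference 1.11 ± 0.15, adjusted p = 0.000138), and AT1G59740 (NPF4.3) differed by 0.54 (adjusted p = 0.00165).

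Enzymes of respiration rose where they changed, and the leucine breakdown and autophagy genes that changed mostly fell. Of 25 genes for organic acids and respiration 5 rose and none fell (20%, against 13.5% of genes with a symbol). The median was 0.10, and 4 or 5 rose with single arrays left out. cICDH, the cytosolic isocitrate dehydrogenase, had 12.68, 12.61 and 12.60 in 35S:LOB-GR against 12.14, 12.20 and 12.12 in Col (difference 0.47 ± 0.08, adjusted p = 0.000924). IDH-V, a mitochondrial isocitrate dehydrogenase subunit, and SDH1-1, of succinate dehydrogenase, differed by 0.51 and 0.49 (adjusted p = 0.00507 and 0.00441). Of 15 genes for amino acid breakdown none rose and 2 fell (13.3%), a share like the 13.5% of all genes with a symbol. Both encode subunits of methylcrotonyl-CoA carboxylase in the leucine pathway. MCCA had 6.5, 6.34 and 6.85 in 35S:LOB-GR against 7.52, 7.65 and 7.39 in Col (difference -0.96 ± 0.13, adjusted p = 0.000246), and MCCB differed by -0.46 (adjusted p = 0.00486). Of 11 autophagy genes 1 rose and 2 fell (27.3%). ATG8E, a ubiquitin-like protein of the autophagosome membrane, had 6.57, 6.32 and 6.94 in 35S:LOB-GR against 7.55, 7.57 and 7.47 in Col (difference -0.92 ± 0.13, adjusted p = 0.000267), and ATG8F differed by -0.54 (adjusted p = 0.00246). ATG8D was the one that rose (0.38), and it did not pass without 35S:LOB-GR replicate 1 or 2 or without Col replicate 1, at between 0.29 and 0.45 over the arrays left out.

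Cell-wall loosening genes changed often but not in one direction. Expansins, proteins that loosen the wall during growth, had 4 members higher and 2 lower of 19 measured (31.6%), and the differences spanned -1.91 to 1.23 with a median of -0.04. EXPA8 had 7.0, 7.27 and 7.79 in 35S:LOB-GR seedlings against 9.36, 8.84 and 9.58 in Col seedlings, a difference of -1.91 ± 0.23 (adjusted p = 6.14e-05), or 3.75-fold lower. EXLA1 had 7.41, 7.91 and 7.35 in 35S:LOB-GR against 8.83, 8.90 and 8.98 in Col (difference -1.35 ± 0.13, adjusted p = 8.77e-06). On the higher side, EXPA16 had 6.55, 7.28 and 6.46 in 35S:LOB-GR against 5.74, 5.34 and 5.50 in Col (difference 1.23 ± 0.21, adjusted p = 0.00129). EXLB1 differed by 0.88 ± 0.13 and EXPA20 by 0.80 ± 0.09 (adjusted p = 0.000351 and 2.11e-05). None of these 5 genes overlapped between the genotypes. The same held for 2435 of the 2470 changed probe sets, and it was a condition for naming EXPA8. The smallest of the changes, EXPA4 (0.34), did not pass without replicate 1 or 2 of either genotype, at differences between 0.28 and 0.43 over all arrays left out. Xyloglucan endotransglucosylases (XTH), which cut and rejoin xyloglucan, had 4 lower and none higher of 10 (40%), with 3 or 4 falling when single arrays were left out. XTH19 had 6.47, 6.65 and 6.28 in 35S:LOB-GR against 7.59, 7.43 and 7.45 in Col (difference -1.02 ± 0.16, adjusted p = 0.000517), while XTH16 and EXGT-A3 differed by -0.58 and -0.39 (adjusted p = 0.0031 and 0.00957). XTH18 had a difference of 0.57 that did not pass (adjusted p = 0.247).

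**Figure D3:**
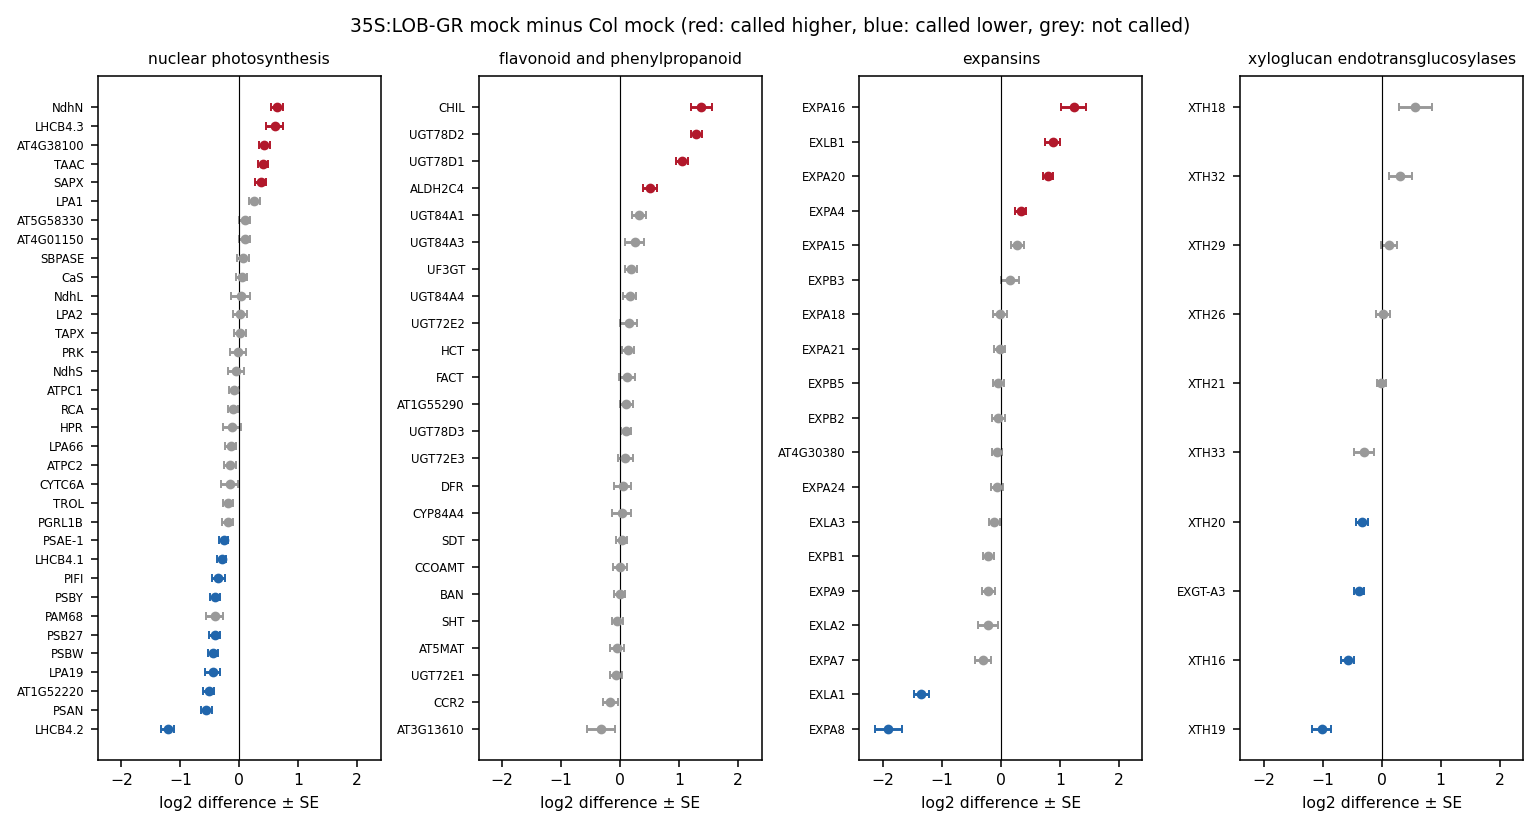
Genotype difference under mock treatment (35S:LOB-GR minus Col, log2; bars are ± SE) for each measured gene of 4 groups, namely nuclear photosynthesis, flavonoid and phenylpropanoid genes, expansins and XTH genes. Red genes passed as higher, blue ones as lower and grey ones did not pass; the coloured points lie on both sides of 0 for photosynthesis and expansins, above 0 for flavonoids and below 0 for XTH genes.

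Other wall genes changed in small numbers. Of 5 pectin methylesterases, which alter the charge of pectin, 2 rose. PMEPCRF had 8.57, 8.70 and 8.55 in 35S:LOB-GR against 7.85, 7.68 and 7.90 in Col (difference 0.80 ± 0.09, adjusted p = 1.98e-05). ATPMEPCRB had 8.70, 9.66 and 8.55 in 35S:LOB-GR against 8.62, 7.98 and 7.76 in Col, where the lowest 35S:LOB-GR array lay below the highest Col array. Its difference of 0.85 ± 0.26 just passed (adjusted p = 0.0442) and did not do so without 35S:LOB-GR replicate 2 or Col replicate 2 or 3, at between 0.51 and 1.1 over the arrays left out. Among 24 trichome birefringence-like genes, whose products acetylate wall polymers, 2 rose and 2 fell, TBL37 by 0.54 and TBL35 by -0.48 among them (adjusted p = 0.00159 and 0.00211), and the other pair was TBL26 (0.72) and TBL36 (-0.74). TBL26 missed the threshold without Col replicate 3 (adjusted p = 0.0616), and TBL36 without 35S:LOB-GR replicate 2 or 3 or Col replicate 1 or 2 (between -0.99 and -0.60). Of 19 genes for cellulose synthase-like and other wall synthesis 3 fell and none rose, among them CSLC04, a xyloglucan backbone synthase, by -0.46 (adjusted p = 0.0066). GH9A3, an endoglucanase, was the 1 of 15 in its family that changed, with 5.56, 5.58 and 5.35 in 35S:LOB-GR against 4.88, 4.85 and 4.77 in Col (difference 0.66 ± 0.09, adjusted p = 0.000211), and a second one passed without 35S:LOB-GR replicate 1.

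Auxin and brassinosteroid genes were lower where they changed. Of 23 auxin genes none rose and 3 fell (13%), a share like that of all genes with a symbol, and 2 to 4 fell with single arrays left out. IAA29, an Aux/IAA repressor of auxin signalling, had 4.58, 4.78 and 4.54 in 35S:LOB-GR seedlings against 6.0, 5.93 and 6.43 in Col seedlings, a difference of -1.49 ± 0.14 (adjusted p = 7.8e-06). In 35S:LOB-GR the gene was dim. HAT2, an auxin-induced homeodomain-leucine zipper factor, had 7.54, 7.81 and 7.80 in 35S:LOB-GR against 8.26, 8.08 and 8.49 in Col (difference -0.56 ± 0.12, adjusted p = 0.00633). WES1 (GH3.5), which conjugates auxin to amino acids, differed by -0.64 ± 0.15 (adjusted p = 0.011) and missed the threshold without 35S:LOB-GR replicate 1 or Col replicate 1 or 3, at between -0.79 and -0.52 over the arrays left out. GH3.3, a related enzyme, had a difference of -0.76 that did not pass (adjusted p = 0.066). Of 6 brassinosteroid genes 2 fell, BRH1, a RING-H2 protein that responds to the hormone, by -0.53 and BIM1, a bHLH partner of BES1, by -0.44 (adjusted p = 0.00598 and 0.00837). BAT1 and BRL1 differed by -0.14 and 0.13 and did not pass.

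In the other hormone groups at most 2 genes changed. Of 8 cytokinin genes RR16, a response regulator induced by the hormone, rose, with 5.57, 5.54 and 5.22 in 35S:LOB-GR against 4.68, 4.78 and 4.68 in Col (difference 0.73 ± 0.11, adjusted p = 0.000462), and a second gene passed without 35S:LOB-GR replicate 3. Of 10 jasmonate genes 2 rose, MYC4, a bHLH regulator of jasmonate responses, by 0.42 (adjusted p = 0.00698) and a second that passed in one of the 6 fits with an array left out, the one without Col replicate 1. GID1B, a gibberellin receptor, was the 1 of 6 gibberellin genes to pass (0.52), and it did not pass without 35S:LOB-GR replicate 2 or Col replicate 1 or 2, at between 0.39 and 0.61 over the arrays left out. EIN3, a master regulator of ethylene responses, was the 1 of 5 ethylene genes to pass (-0.33), and of the 6 fits with a mock array left out only the one without Col replicate 2 kept the call, at between -0.39 and -0.29.

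The listed genes for defence and salicylic acid were higher where they passed, with little margin. Small antimicrobial peptides, listed apart, had few changed members. Of 20 genes for defence and salicylic acid 4 rose and none fell (20%), with a median of 0.08. Only 1 passed without Col replicate 1 or 3, and at most 3 passed in the other fits with an array left out. AT1G12200, listed as the flavin monooxygenase FMO, was the firm one, with 7.30, 7.39 and 7.36 in 35S:LOB-GR against 6.28, 6.61 and 6.49 in Col (difference 0.89 ± 0.11, adjusted p = 6.72e-05). This locus entered the list by its symbol alone, and a part of it in defence was not tested. WRKY53, a transcription factor of defence and leaf ageing, differed by 0.82 (adjusted p = 0.0494) and did not pass without 35S:LOB-GR replicate 2 or Col replicate 1 or 3, at between 0.47 and 1.01 over the arrays left out. Among 14 genes for glucosinolates and ER bodies 2 rose (14.3%), a share near that of all genes with a symbol. GTR1, a glucosinolate transporter, was 1 of them, with 8.03, 7.66 and 8.15 in 35S:LOB-GR against 7.12, 7.17 and 7.11 in Col (difference 0.81 ± 0.11, adjusted p = 0.000169). The second was UGT74B1 (0.35), which did not pass without 35S:LOB-GR replicate 2 or Col replicate 2 or 3, at between 0.28 and 0.42. Of 15 thionins, defensins and small cysteine-rich peptides none rose and 2 fell (13.3%), a share like the 13.5% of all genes with a symbol. THI2.2, a thionin with antimicrobial activity, had 7.45, 7.09 and 7.44 in 35S:LOB-GR against 9.17, 8.84 and 9.03 in Col (difference -1.69 ± 0.20, adjusted p = 4.81e-05). The second, PDF2.5 (-0.36), was dim and did not pass without replicate 2 of either genotype, at between -0.40 and -0.30. Another list, of thionins and defensins found by words in their symbols or synonyms, had 2 higher and 3 lower of 20 (25%).

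Cell-cycle genes were lower where they passed. Of 20 cell-cycle and histone genes none rose and 6 fell (30%), with differences between -0.65 and 0.26 and a median of -0.24. The count was 2 without Col replicate 2 and at most 5 without any one other array. AUR1, an Aurora kinase of mitosis, had 7.05, 6.98 and 7.18 in 35S:LOB-GR against 7.69, 7.73 and 7.4 in Col, a difference of -0.54 ± 0.11 (adjusted p = 0.00347). The mitotic DNA-binding proteins 3xHMG-box1 and 3xHMG-box2 were lower by -0.58 and -0.65, with the first missing the threshold without 35S:LOB-GR replicate 1 or Col replicate 2 (between -0.70 and -0.43) and the second in 5 of the 6 fits with a mock array left out, all but the one without Col replicate 3 (between -0.76 and -0.55). Of 7 tubulins TUB9 rose (0.37, adjusted p = 0.0078) and TUB5 fell (-0.38), and TUB5 missed the threshold without 35S:LOB-GR replicate 1 or Col replicate 1 or 2 (between -0.43 and -0.31). Among the 21 bZIP factors listed, which leave out HYH, counted above with the light-signalling genes, BZIP61 was the 1 that changed. It had 7.21, 7.68 and 7.85 in 35S:LOB-GR against 8.54, 8.22 and 8.65 in Col (difference -0.89 ± 0.15, adjusted p = 0.0013). None of the 12 measured RNA polymerase subunits passed, and their differences lay between -0.18 and 0.31. Among 17 genes for RNA processing in organelles 2 rose, of which OTP81, an editing factor, did so whichever mock array was left out (0.62 ± 0.10, adjusted p = 0.000555) and OTP84 (0.28) in none of the fits with an array left out (between 0.25 and 0.31).

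The genes for tissues and organ boundaries that could be matched changed little under mock treatment, but many markers were missing. Of first lists of markers, 1 of 6 leaf, 2 of 10 root, 0 of 8 seed and 0 of 7 flower and pollen genes could be matched. For organ boundaries and meristems 3 of 21 could be. The groups counted here were built from genes that could be named. Of 22 genes for meristem, boundary and leaf development 1 fell and none rose, and 1 passed as higher without 35S:LOB-GR replicate 3. The one that fell was ULT1, a regulator of meristem size, with 6.79, 6.63 and 6.67 in 35S:LOB-GR against 7.17, 7.29 and 7.27 in Col (difference -0.55 ± 0.09, adjusted p = 0.000945). LAS, a GRAS protein of axil boundaries, differed by 0.08 (adjusted p = 0.792). The stomatal-lineage factors SPCH and FMA differed by 0.07 and 0.19 (adjusted p = 0.821 and 0.402), and none of the 4 stomatal genes passed. EXPA7, an expansin of root hairs, averaged 4.90 in 35S:LOB-GR and 5.19 in Col and EXPA18, another one, 5.23 in 35S:LOB-GR and 5.24 in Col, neither of which passed (adjusted p = 0.193 and 0.968). Markers of pollen, egg cells and flowers were mostly dim, with a median level of 4.2 over 24 genes. Of these 2 fell and none rose, and 1 of the 2 was lost without 35S:LOB-GR replicate 1 or 3 or Col replicate 1. Over the smaller groups not described here, 22 in all with 282 genes, 10 genes rose and 22 fell, no group had more than 3 in one direction, and the medians lay between -0.15 and 0.06.

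**Figure D4:**
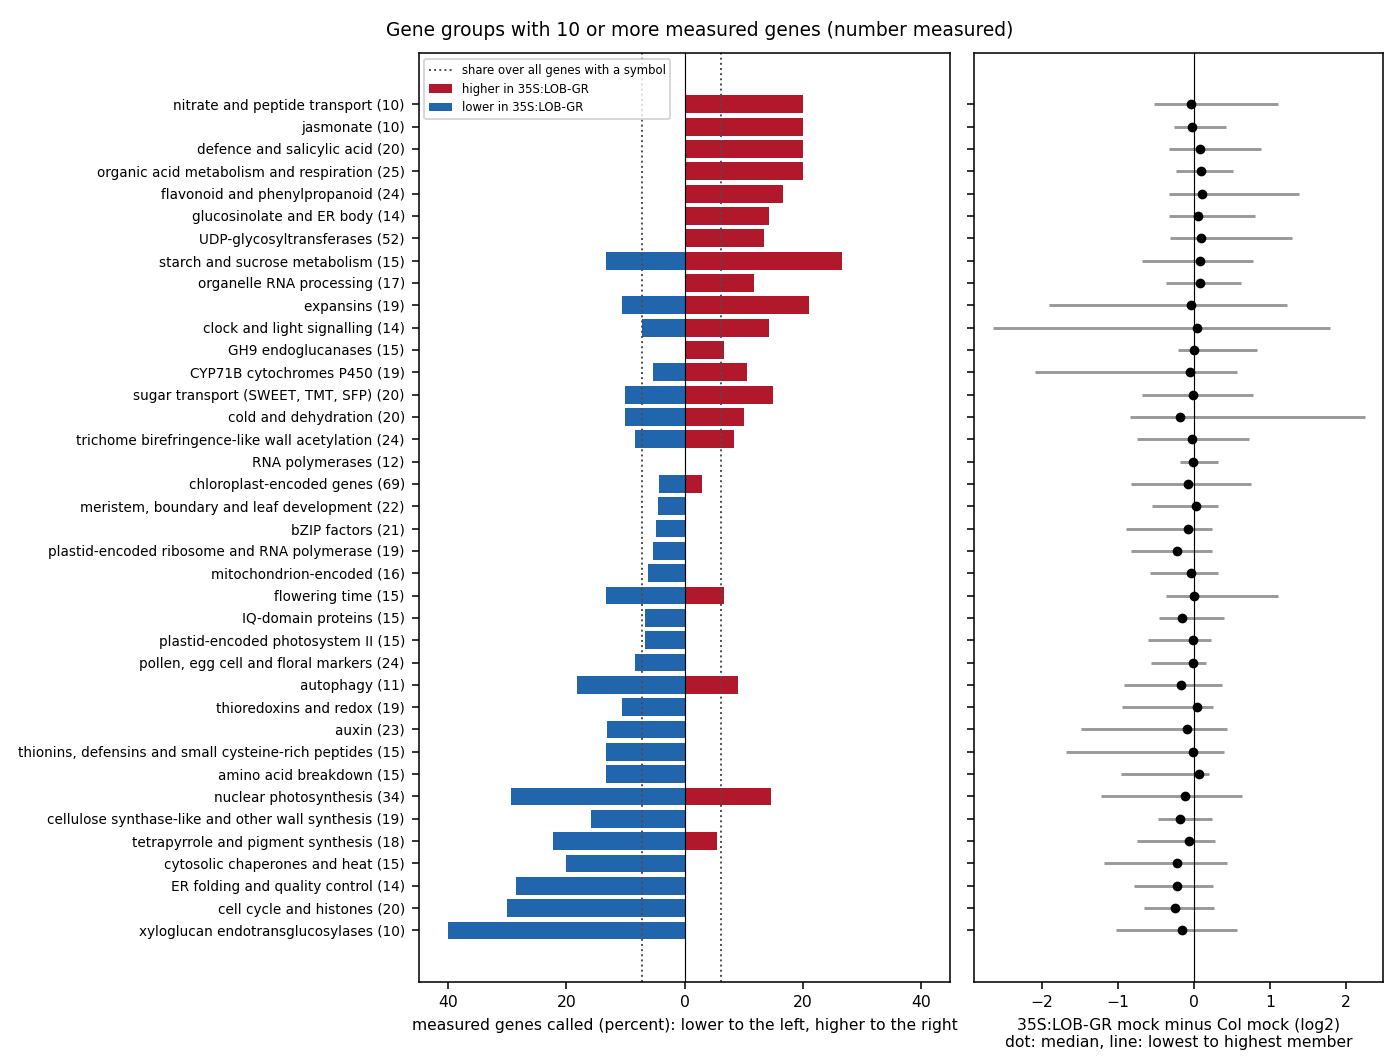
The function groups described here that have at least 10 measured genes, under mock treatment. Left, percent of genes higher (right of 0) and lower (left of 0) in 35S:LOB-GR, with dotted lines at the shares over all 1557 genes with a symbol (6.23% and 7.26%). Right, median and range of the differences (35S:LOB-GR minus Col, log2). The medians lie between -0.24 (cell cycle and histones) and 0.10 (flavonoid and phenylpropanoid), and the ranges extend to both sides of 0.

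Some of the largest changes fell outside the groups. SUFE2, an activator of cysteine desulfurase in iron-sulfur cluster assembly, had 6.51, 6.65 and 6.31 in 35S:LOB-GR seedlings against 5.08, 5.24 and 4.67 in Col seedlings (difference 1.49 ± 0.16, adjusted p = 1.72e-05). THIC, the enzyme that makes the pyrimidine part of thiamine, had 11.76, 11.67 and 11.74 in 35S:LOB-GR against 10.76, 10.86 and 10.94 in Col (difference 0.87 ± 0.08, adjusted p = 4.95e-06). AILP1 had 9.43, 9.70 and 9.76 in 35S:LOB-GR against 10.72, 10.83 and 10.88 in Col (difference -1.18 ± 0.15, adjusted p = 0.000118). In all 3 genes the genotypes were well apart. Of the 554 genes with a symbol that entered no group, 33 rose and 24 fell.

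Most changed genes were known by locus alone, with 501 higher and 474 lower of 11799. AT2G23910 rose the most of all genes with a RefSeq locus, with 7.62, 6.99 and 6.84 in 35S:LOB-GR against 4.37, 4.95 and 4.97 in Col (difference 2.39 ± 0.19, adjusted p = 8.6e-07), or 5.23-fold. AT3G28270 had 7.84, 6.80 and 7.69 in 35S:LOB-GR against 5.00, 5.59 and 5.2 in Col (difference 2.18 ± 0.22, adjusted p = 1.37e-05), and AT2G29500 had 7.18, 8.0 and 6.68 in 35S:LOB-GR against 4.84, 5.16 and 5.38 in Col (difference 2.16 ± 0.33, adjusted p = 0.000572). The 35S:LOB-GR arrays of these genes were spread over about 1 log2 unit but did not reach the Col arrays, which the rule for naming them required. AT3G15450 was the most reduced of the locus-only genes, with 8.65, 8.04 and 9.04 in 35S:LOB-GR against 10.84, 11.22 and 10.60 in Col (difference -2.31 ± 0.20, adjusted p = 2.79e-06). AT5G19430 averaged 3.9 ± 0.13 in 35S:LOB-GR and 6.0 ± 0.14 in Col (SD, n = 3 each), with the 35S:LOB-GR value near the low end of the scale (difference -2.10, adjusted p = 4.16e-09).

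Of the changes of at least 4-fold, 25 were on probe sets with no or several annotated genes and 12 on probe sets with 1 gene. The 2 largest in each direction were picked after their values were seen. Probe set 258239_at had 5.85, 6.20 and 6.49 in 35S:LOB-GR against 11.50, 11.40 and 11.40 in Col (difference -5.25 ± 0.18, adjusted p = 6.36e-11), and 248910_at had 4.39, 4.55 and 4.78 in 35S:LOB-GR against 8.83, 8.90 and 9.00 in Col (difference -4.34 ± 0.13, adjusted p = 3.15e-11). In the other direction, 249606_at had 8.20, 7.78 and 8.44 in 35S:LOB-GR against 3.98, 4.17 and 4.11 in Col (difference 4.05 ± 0.14, adjusted p = 8.75e-11), and 257985_at had 9.47, 9.51 and 9.91 in 35S:LOB-GR against 5.76, 5.69 and 5.91 in Col (difference 3.84 ± 0.17, adjusted p = 1.36e-09). In none of these 4 did an array of one genotype come near an array of the other, and under DEX the differences were -5.31, -4.15, 3.95 and 3.19. Changed genes were spread over the genome, with 9.47% of genes on chromosome 1, 7.70% on chromosome 2, 8.46% on chromosome 3, 9.04% on chromosome 4, 9.42% on chromosome 5 and 7.25% in the plastid genome.

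The same genotype difference was also measured in the DEX groups, and the values of both treatments are given side by side. Under DEX 4880 probe sets differed between 35S:LOB-GR and Col (21.5%), of which 2665 were higher (11.7%) and 2215 lower (9.74%) in 35S:LOB-GR. Of the 1310 probe sets higher under mock treatment 718 were also higher under DEX, which is 54.8% of the mock list and 26.9% of the DEX list. Of the 1160 lower under mock treatment 756 were also lower under DEX, which is 65.2% of the mock list and 34.1% of the DEX list. The opposite call under DEX was made for 47 of the higher and 29 of the lower probe sets. GI differed by -2.65 under mock treatment and -2.80 under DEX, CHIL by 1.38 and 1.86, UGT78D2 by 1.29 and 1.49, and IAA29 by -1.49 and -2.12. The difference of these 2 differences was tested in the same fit, and 1085 probe sets passed (4.77%). Among the probe sets changed under mock treatment, it passed for 176 of the higher ones, of which 148 were smaller or turned under DEX, and for 203 of the lower ones, of which 118 were larger under DEX. This test reuses the mock arrays on which these probe sets were chosen. A smaller difference under DEX can therefore come in part from the choice itself, and that part was not measured. EXPA8 was lower under both treatments and more so under DEX, at -4.64 against -1.91 under mock treatment. EXPA4 differed by 0.34 under mock treatment and 1.69 under DEX. In contrast, COR27 differed by 1.79 under mock treatment and 0.45 under DEX, and SUFE2 by 1.49 and 0.10.

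**Figure D5:**
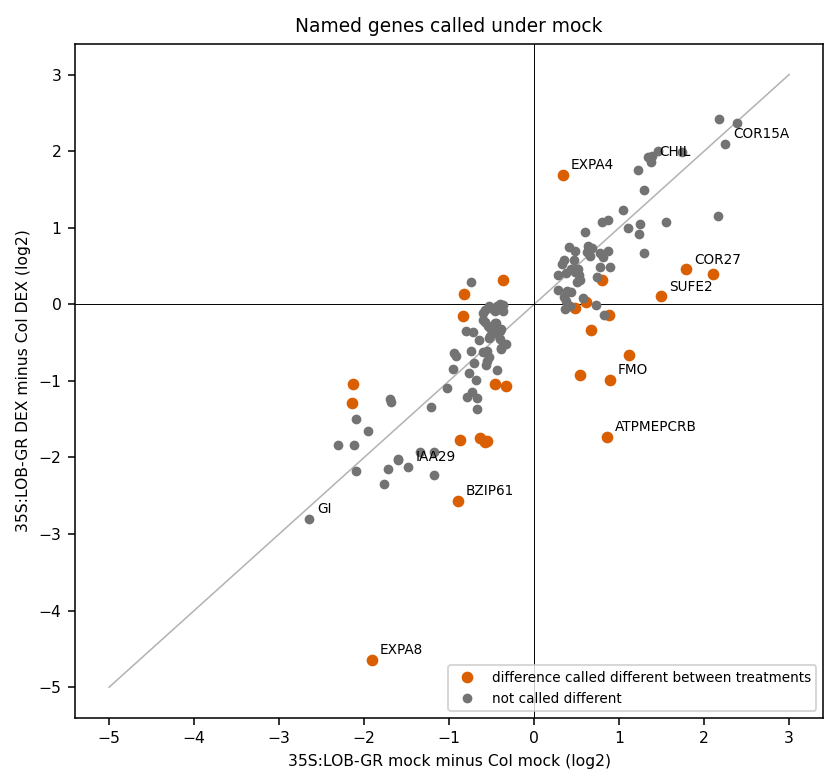
Genotype difference (35S:LOB-GR minus Col, log2) of the named genes that changed under mock treatment, with the mock difference on the x axis and the DEX difference on the y axis. Orange points are genes whose 2 differences differed from each other in the limma fit, such as EXPA8 (-1.91 and -4.64) and COR27 (1.79 and 0.45).

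Some groups in which few members changed under mock treatment had more under DEX, where 25.2% of genes with a symbol changed, 12.9% higher and 12.3% lower. None of the 12 RNA polymerase subunits passed under mock treatment and 6 were higher under DEX, and of 17 genes for organelle RNA processing 2 were higher under mock treatment and 8 under DEX. Among 21 bZIP factors 1 was lower under mock treatment and 8 under DEX, and among 7 tubulins 1 and 5. Of 15 IQ-domain proteins 1 was lower under mock treatment and 5 under DEX, where the mock count was 0 without 35S:LOB-GR replicate 1 or 3 or Col replicate 3 and 2 without 35S:LOB-GR replicate 2 or Col replicate 2. Nuclear photosynthesis genes had 10 lower and 5 higher under mock treatment, against 8 lower and 4 higher under DEX. Differences between these group counts were not tested. Gene by gene, the difference of the 2 genotype differences passed for 2 RNA polymerase subunits, 1 organelle RNA processing gene and 2 bZIP factors. It passed for 1 tubulin, 3 IQ-domain proteins and 0 nuclear photosynthesis genes, against 4.77% of all probe sets.

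In a principal component analysis of all 12 arrays, the leading 2 components took 48.8% and 16.2% of the variance, and arrays of one group correlated at 0.9922 to 0.9970. Under mock treatment the 3′ minus 5′ control signals, a measure of RNA integrity and labelling, averaged -0.358 ± 0.092 for GAPDH in 35S:LOB-GR and -0.169 ± 0.072 in Col (SD, n = 3 each; exact permutation p = 0.1). They averaged -0.094 ± 0.087 in 35S:LOB-GR and 0.052 ± 0.033 in Col for ubiquitin (exact permutation p = 0.1), and 1.1 ± 0.03 in 35S:LOB-GR and 1.22 ± 0.18 in Col for actin (exact permutation p = 0.3). The smallest p that 3 arrays against 3 can give here is 0.1, two-sided. Their part in the genotype differences was not tested.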

How the data were processed

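The authors deposited log2 expression values per probe set; the submitters' processing notes name RMA, without a version. Values ran from 2.71 to 14.14, the medians of the arrays from 5.88 to 5.97, and no column was left unmapped. Arrays were grouped by their titles. Control probe sets (64 of 22810) were left out and no filter on low values was applied. A group-means model over all 12 arrays was fitted with limma 3.58.1 in R 4.3.3 (lmFit, eBayes), with Benjamini-Hochberg adjustment over 22746 probe sets. Probe sets were named from the platform annotation, with symbols from RefSeq (TAIR10.1), and genes with several probe sets were read from the brightest. Function groups were built by hand from genes with a symbol or a RefSeq synonym. The members and lists were chosen with earlier results of these data known. Named genes are the 15 highest and 15 lowest differences among changed genes with 1 gene per probe set and arrays that do not overlap, up to 4 changed members of each list in each direction, and, for lists with none, up to 2 with the largest difference; others are named for their place in a group or after their values were seen. The number of arrays limits the precision. Alternatives were other scalings, filters, variance models, thresholds, a replicate block and leaving out each array. Sequences and promoter motifs were not analysed here. One group of genes is not reported here.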

Additional observations from a re-analysis of the deposited data

Results flagged for a closer look

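For 26 of the named genes the genotype difference itself differed between DEX and mock treatment (limma, adjusted p of the difference of differences under 0.05), and this is the reason they are listed. The value given for each is the DEX difference minus the mock difference in log2 units, each difference being 35S:LOB-GR minus Col. Groups of 3 arrays were not examined for single outlying arrays, and both differences of a gene come from the one fit. The genes were named for their mock difference, and the mock arrays enter the value given here. A DEX difference nearer to 0 can therefore come in part from that choice, and this was not measured.

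Among cell-wall genes, the difference became more negative for EXPA8 (-2.73), XTH16 (-1.22), XTH20 (-0.73) and CSLC04 (-0.58), which were lower in 35S:LOB-GR under both treatments. For ATPMEPCRB (-2.59), TBL37 (-1.46), EXLB1 (-1.01) and PMEPCRF (-0.48) it was positive under mock treatment and smaller or of the other sign under DEX. ATPMEPCRB differed by 0.85 under mock treatment and -1.74 under DEX, and TBL37 by 0.54 and -0.92. EXPA4 (1.35) was higher under both and more so under DEX.

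Of the auxin-related genes, HAT2 (-1.23) and WES1 (-1.11) were lower under both treatments and more so under DEX. The bZIP factor BZIP61 (-1.68) and the RING protein ATL8 (-0.90) showed the same pattern, with -0.89 and -2.57 for BZIP61. The flavin monooxygenase FMO (-1.87) was 0.89 under mock treatment and -0.98 under DEX.

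Among genes of metabolism and transport, SWEET1 (-1.001), SWEET2 (-0.57), DPE1 (-0.53) and SUFE2 (-1.39) were higher under mock treatment and nearer to 0 or of the other sign under DEX. So were AT1G68570 (-1.78), AT1G43910 (-1.72) and COR27 (-1.34). AT1G68570 differed by 1.11 under mock treatment and -0.66 under DEX.

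The mock difference was negative and the DEX difference less so, or positive, for TIL (0.68), PDF2.5 (0.68), rpl14 (0.96), AT5G35970 (0.85) and AT2G32150 (1.08). AT5G35970 differed by -2.14 under mock treatment and -1.29 under DEX, and rpl14 by -0.83 and 0.13.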

How the results depend on the processing

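The 2470 probe sets called under mock treatment became 2440 with only the 6 mock arrays in the fit, 2429 with each array's median subtracted, 2434 after quantile normalization, 2484 without the dimmest 25% of probe sets, 2459 with a trend, 2472 with robust eBayes and 2857 with array weights. They numbered 1751 to 2295 with single mock arrays left out and 2216 to 2925 with single DEX arrays left out. At an adjusted p under 0.01 the calls were 1308 under mock treatment (637 higher and 671 lower), 3018 under DEX and 474 for the difference of differences, as a stricter threshold must give fewer; those of at least 2-fold were 261 in place of 273. Of 148 named genes called, 104 kept their call whichever mock array was left out. The differences of EXPA18 and SPCH, close to 0 and not called, changed sign. EXPA18 was 0.0015 with array weights, 0.051 without 35S:LOB-GR replicate 2, 0.022 without Col replicate 1 and 0.031 without Col replicate 2, and SPCH was -0.043 without Col replicate 3; the cause was not tested. With single mock arrays left out, EXPA18 ran from -0.090 to 0.051 and SPCH from -0.043 to 0.149. Groups of 3 arrays limit what can be called among small differences, and dim probe sets give less certain sizes.

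Replicate numbers are shared by the groups. Deviations of same-numbered mock arrays of the 2 genotypes correlated at -0.09, -0.12 and 0.13. Between Col mock and Col DEX the values were 0.04, 0.03 and 0.09, and between Col mock and 35S:LOB-GR DEX 0.08, 0.19 and 0.01. Between 35S:LOB-GR mock and 35S:LOB-GR DEX they were -0.23, -0.04 and -0.09. With 3 arrays a group, such values cannot decide whether the numbers pair the samples. With the replicate block the mock count was 2412 probe sets, 1282 higher and 1130 lower, with 4750 under DEX and 993 for the difference of differences.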
